A study of Homo sapiens with 6 samples.

Results

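The genes described here carry peptides from the cytosol to the cell surface on MHC class I molecules, and 10 of them were followed: B2M, HLA-C, HLA-E, HLA-F, TAP1, TAP2, TAPBP, PSMB8, PSMB9 and NLRC5. They were chosen by the gene symbol that the platform annotation gives to a probe set, a group of short probes read together as 1 signal. They are 10 of 19775 annotated genes and 24 of the 54675 probe sets on the array. The cells were HEK293, a line derived from human embryonic kidney, grown in DMEM with 10% FCS. A group of 3 arrays came from cells transfected with a control siRNA and a group of 3 from cells transfected with a siRNA against BAHD1, a protein of repressive chromatin, with total RNA taken after 72 h in both. All 6 samples thus carried an siRNA and the transfection reagent, and no untransfected cells were analysed here. The comparison asks which transcripts differ when BAHD1 is depleted.

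Cytosolic proteins are cut into peptides by the proteasome, and interferon-inducible catalytic subunits such as PSMB8 and PSMB9 replace constitutive ones in the immunoproteasome. TAP1 and TAP2 form the transporter that moves peptides into the endoplasmic reticulum, and TAPBP, tapasin, holds the empty class I molecule beside it until a peptide is bound. The class I molecule itself is a heavy chain such as HLA-C, HLA-E or HLA-F with the light chain B2M, beta-2 microglobulin. NLRC5 is a transcriptional coactivator of these genes, and interferons and NF-kB raise many of them together.

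No gene of the pathway passed the test across all probe sets. PSMB9 had the largest difference among the genes that could be tested, at 156% of the control level, while TAP1, which lies head to head with it, was at 102%. The light chain B2M and the heavy chains HLA-E and HLA-F stood at 90.9% to 110.1% of the control level in their tested probe sets. For HLA-C and for TAP2 the difference varied from probe set to probe set, and that variation was not tested. PSMB8 and NLRC5 were too dim to be tested.

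The depletion itself was modest in these arrays. For BAHD1, control signals were 62.9, 55.7 and 46.7 and siRNA signals 36.6, 46.8 and 41.2, so the groups overlapped only at 46.7 and 46.8. Depleted cells kept 76.0% of the control level, a difference that limma did not call (adjusted p = 0.251). Array medians lay between 15.9 and 19.5. All 24 control features that read bacterial poly-A RNAs, which are spiked in, were higher in every BAHD1 siRNA array than in every control array, with a median log2 difference of 0.58. Dim probe sets also leaned upward and bright ones downward: the median log2 difference was 0.11 in the dimmest quartile of the tested probe sets and -0.035 in the brightest. The part of these shifts in the differences below was not tested. The HEK293 markers KRT8, KRT18, VIM, CDH2, NEFM, NEFL and PAX2 were all measured, and their signals summed to 5289.2 to 5683.6 per control array and 4949.8 to 5247 per array of depleted cells. Most of that sum is VIM, which fell in the intensity-trend fit by 0.32 on the log2 scale, while the neurofilaments NEFM and NEFL rose by 0.58 and 0.37 (limma, adjusted p = 0.0318, 0.0473 and 0.0457). The other 4 did not pass, and PAX2 was at 0.65. None of the 8 leukocyte markers with a probe set passed the filter on dim values, CD74 and HLA-DRA included. PTPRC and CD14 read at most 11.7 and 1.2, and the 8 markers together summed to 32.4 to 56.7 per array with the control siRNA and 40.2 to 61.5 with the BAHD1 siRNA. Of 3 endothelial markers only PECAM1 passed, with a log2 difference of 0.027.

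The promoters of 5 of the genes are shown because the results turn on them: PSMB9, TAP2 and HLA-C hold the probe sets with the smallest p-values, TAP1 shares the stretch upstream of PSMB9, and B2M is the common partner of the heavy chains. Each line gives the 250 bases before the gene's start, 5′ to 3′ on the gene's own strand, from RefSeq on GRCh38.p14. Capitals mark every match, on either strand, to 1 of 5 motifs. They are the core of the interferon-stimulated response element (ISRE; GAAA, any 2 bases, then GAAA again), the gamma-activated site (TTCNNNGAA), the NF-kB site (GGGA followed, after any base, by TTTCC), the CCAAT box, and TGACG, part of the cyclic AMP response element. Matches of different motifs may overlap.
PSMB9 promoter, chr6:32853942-32854191, plus strand: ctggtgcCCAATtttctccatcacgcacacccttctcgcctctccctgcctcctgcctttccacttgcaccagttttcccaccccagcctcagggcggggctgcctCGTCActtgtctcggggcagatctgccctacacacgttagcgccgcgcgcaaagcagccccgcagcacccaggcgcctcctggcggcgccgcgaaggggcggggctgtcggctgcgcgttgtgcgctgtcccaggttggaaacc
TAP1 promoter, chr6:32853705-32853954, minus strand: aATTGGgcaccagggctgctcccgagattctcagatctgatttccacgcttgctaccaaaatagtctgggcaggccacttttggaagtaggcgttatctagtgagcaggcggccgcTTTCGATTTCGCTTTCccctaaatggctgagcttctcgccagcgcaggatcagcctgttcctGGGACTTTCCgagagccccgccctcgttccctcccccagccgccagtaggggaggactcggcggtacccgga
TAP2 promoter, chr6:32838740-32838989, minus strand: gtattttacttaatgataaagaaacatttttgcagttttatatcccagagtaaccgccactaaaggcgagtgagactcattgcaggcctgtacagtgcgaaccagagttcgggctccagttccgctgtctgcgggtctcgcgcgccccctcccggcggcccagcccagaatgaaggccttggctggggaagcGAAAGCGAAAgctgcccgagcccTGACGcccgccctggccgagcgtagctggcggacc
HLA-C promoter, chr6:31272093-31272342, minus strand: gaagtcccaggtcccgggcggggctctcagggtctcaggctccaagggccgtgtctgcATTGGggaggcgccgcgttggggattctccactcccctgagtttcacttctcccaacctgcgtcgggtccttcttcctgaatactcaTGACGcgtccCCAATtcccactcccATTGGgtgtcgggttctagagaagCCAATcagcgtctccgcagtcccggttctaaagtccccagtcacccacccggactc
B2M promoter, chr15:44711267-44711516, plus strand: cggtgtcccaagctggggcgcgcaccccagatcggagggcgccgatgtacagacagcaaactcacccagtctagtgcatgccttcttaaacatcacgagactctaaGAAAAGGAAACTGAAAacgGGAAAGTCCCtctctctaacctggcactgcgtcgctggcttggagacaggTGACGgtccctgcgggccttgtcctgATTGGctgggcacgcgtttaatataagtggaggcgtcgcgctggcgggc

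TAP1 and PSMB9 point away from each other with 487 bases between their starts, and the windows above share 13 bases that hold 1 CCAAT box. The ISRE core occurred in the windows of B2M, HLA-F, TAP1, TAP2 and TAPBP, that is 5 of the 8 genes with a promoter in the table, and in 3.02% of all 35116 promoters cut to the same length. In TAP1 it occurred as 2 matches, the nearer beginning 128 bases before the start, and the window of PSMB9 held none. The NF-kB site was found for B2M and TAP1, against 0.527% of all promoters. CCAAT was found for B2M, HLA-C, HLA-F, TAP1 and PSMB9, against 32.0% of all, and HLA-C had 4 matches. TGACG was found for B2M, HLA-C, TAP2, PSMB8 and PSMB9, against 21.2%, and TTCNNNGAA for none of the 8, against 6.57%. These are matches of letters in a fixed window and describe the sequences only.

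Signals are given on the deposited linear scale, and differences are BAHD1 siRNA minus control siRNA on log2(signal + 1). A probe set was tested when its signal was above 17.9, the median of all values, in at least 3 arrays. Of the 24 probe sets 19 were tested, covering 8 of the 10 genes, and each of these passed the filter in all 6 arrays. A probe set was called at an adjusted p under 0.05 in limma with a single variance prior, or in the intensity-trend fit. The latter is limma with a prior that follows the signal and is estimated robustly, so that probe sets of outlying spread weigh less. The fits thus differ in more than the trend. The single-prior fit called 0% of all 27458 tested probe sets and the intensity-trend fit 4.45%. Of the 19, neither called any; the smallest adjusted p was 0.137 with the single prior, for PSMB9, and 0.0993 in the intensity-trend fit, for TAP2. Unadjusted p was under 0.05 for 3 of the 19 (15.8%) with the single prior, against 17.6% of all probe sets. All 3 were higher in BAHD1 siRNA cells, so such higher probe sets made up 15.8% of the 19, against 9.78% of all. It was under 0.05 for 4 (21.1%) in the intensity-trend fit, against 20.9%. Again all were higher, which is 21.1% of the 19 against 11.0% of all. The groups did not overlap in 5 of the 19 (26.3%), against 25.6% of all. Of these 4 were higher in BAHD1 siRNA cells (21.1% of the 19) and 1 was lower (5.26%), against 13.4% and 12.2% of all probe sets. The shares without regard to direction lay near those of the array.

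**Figure D1:**
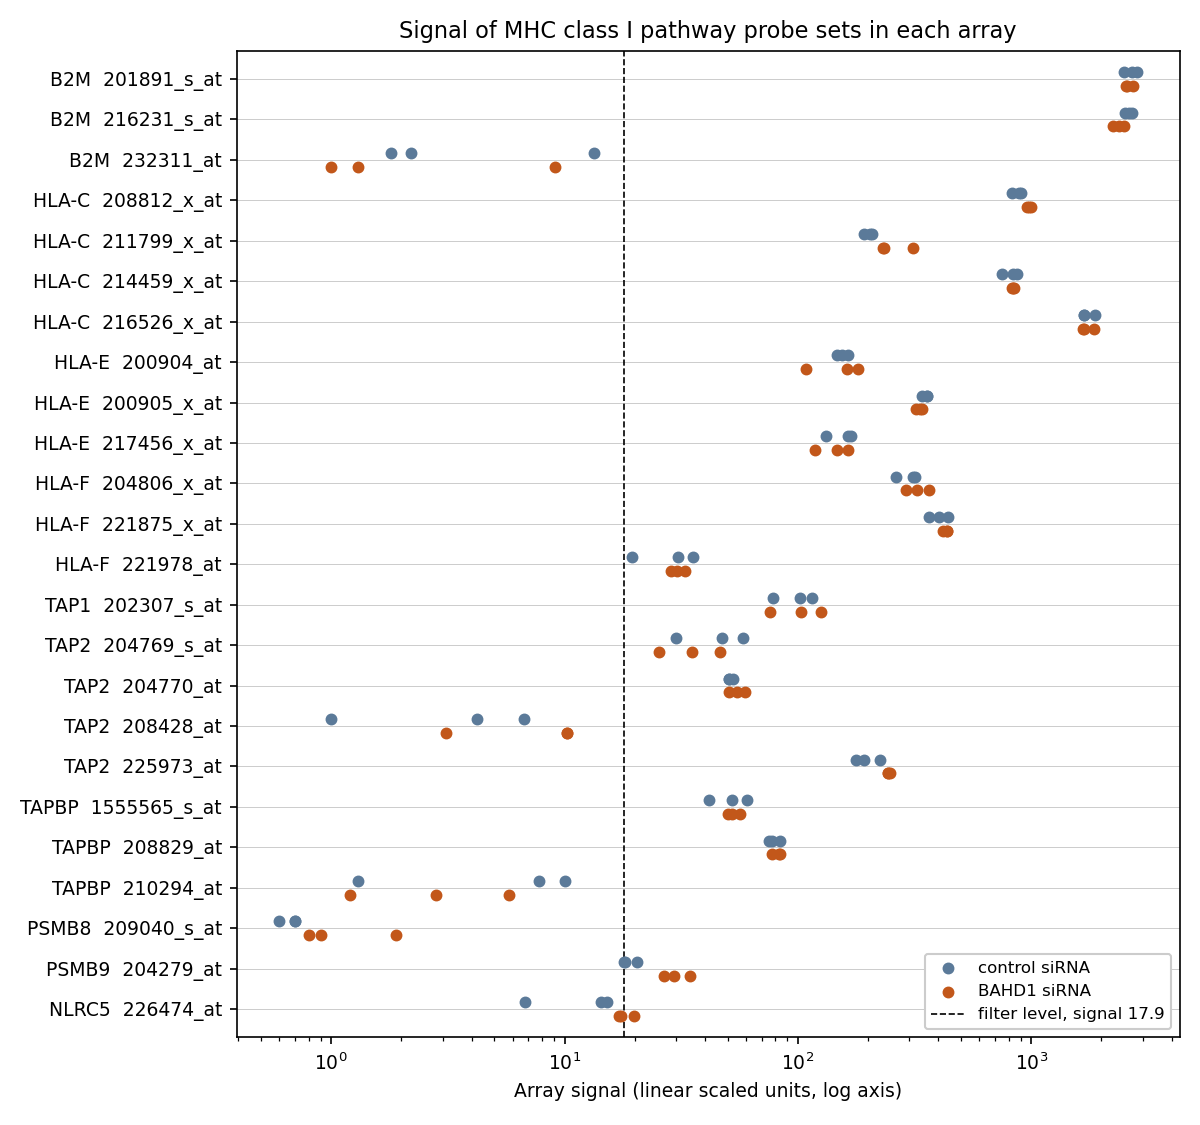
Signal of all 24 probe sets in each of the 6 arrays on a log axis, with control siRNA arrays in blue, BAHD1 siRNA arrays in orange and the filter level of 17.9 as a dashed line. Levels can be compared between arrays within a probe set, not between probe sets. The 3 BAHD1 siRNA values of PSMB9 (26.6 to 34.4) lie apart from the 3 control values (18.0 to 20.4), and most other pairs of groups overlap or touch.

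Peptide production was read by PSMB8 and PSMB9, catalytic subunits of the immunoproteasome. The single PSMB9 probe set read 18.1, 18.0 and 20.4 in control arrays and 29.3, 34.4 and 26.6 in BAHD1 siRNA arrays. Every BAHD1 siRNA array was above every control array, and the control values lay just above the filter level. In bulk RNA such as this, fewer or more cells with a transcript cannot be told apart from less or more of it per cell. The mean log2 level was 4.31 ± 0.097 (SD, n = 3) with the control siRNA. With the BAHD1 siRNA it was 4.95 ± 0.18 (SD, n = 3). The difference was 0.64 with an SE of 0.12 and a 95% interval of 0.35 to 0.94. It did not pass after adjustment over all probe sets (limma, adjusted p = 0.137 with the single prior and 0.207 in the intensity-trend fit), and the exact two-sided permutation p was 0.1, the smallest that 3 samples against 3 can give. In the intensity-trend fit, where dim probe sets are given a wider spread, the SE was 0.28. The difference was 0.55 to 0.73 with 1 array left out and 0.54 after quantile normalization. With a pseudocount of 16, which shrinks differences between dim signals, it was 0.40. In the dimmest quartile, to which this probe set belongs, 60.9% of probe sets were higher in BAHD1 siRNA cells.

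PSMB8 was read by 1 probe set with signals of 0.7, 0.6 and 0.7 in control arrays and 1.9, 0.8 and 0.9 in BAHD1 siRNA arrays, all below the filter level. The values do not overlap between groups but lie at the bottom of the scale, where a change of 0.1 is the last printed digit. Without the filter its log2 difference was 0.37 (limma, adjusted p = 0.629).

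For the transporter, neither gene passed the test. TAP1 read 114.7, 102.5 and 78.0 in control arrays and 126.2, 75.6 and 103.1 in BAHD1 siRNA arrays, so that both the highest and the lowest value belonged to the BAHD1 siRNA group. Its log2 difference was 0.034 with an SE of 0.23 and a 95% interval of -0.52 to 0.59 (limma, adjusted p = 0.95). The intervals of TAP1 and PSMB9 overlap, and the difference between these neighbours was not tested. TAP1 was at -0.14 without BAHD1 siRNA replicate 1, 0.23 without BAHD1 siRNA replicate 2 and -0.12 without control replicate 3.

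TAP2 was read by 4 probe sets, 3 of them tested. The probe set 225973_at read 192.1, 177.1 and 224.1 in control arrays and 243.3, 248.5 and 243.4 in BAHD1 siRNA arrays, with the groups apart. The difference was 0.31 with an SE of 0.11 and a 95% interval of 0.050 to 0.58. The difference did not pass (limma: adjusted p = 0.231 with the single prior, 0.0993 with the trend; exact permutation p = 0.1). Without control replicate 3, which held the highest control value, the difference was 0.41 and the intensity-trend fit called it (limma, adjusted p = 0.0428). The other probe sets of TAP2 did not repeat this. 204770_at read 50.8, 52.8 and 50.8 against 54.9, 50.9 and 59.6, a difference of 0.095 with an SE of 0.091. 204769_s_at read 57.9, 30.0 and 47.4 against 25.3, 46.2 and 35.0, a difference of -0.33 with an SE of 0.30, and overlapped throughout. Across the 6 arrays 204769_s_at and 225973_at correlated at r = -0.12 and 204770_at and 225973_at at 0.36, as a description of probe sets for 1 gene. The fourth, 208428_at, stayed between 1.0 and 10.2 and was not tested.

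Tapasin differed little between the groups. The TAPBP probe set 208829_at read 84.1, 75.3 and 77.8 in control arrays and 77.6, 83.3 and 84.2 in BAHD1 siRNA arrays, and the groups overlapped almost fully. Its log2 difference was 0.047 with an SE of 0.088 and a 95% interval of -0.17 to 0.26 (limma, adjusted p = 0.801). The second tested probe set, 1555565_s_at, read 52.0, 60.4 and 41.4 against 52.0, 50.3 and 56.6, a difference of 0.061 with an SE of 0.15. The third was between 1.2 and 10.0 and was not tested.

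**Figure D2:**
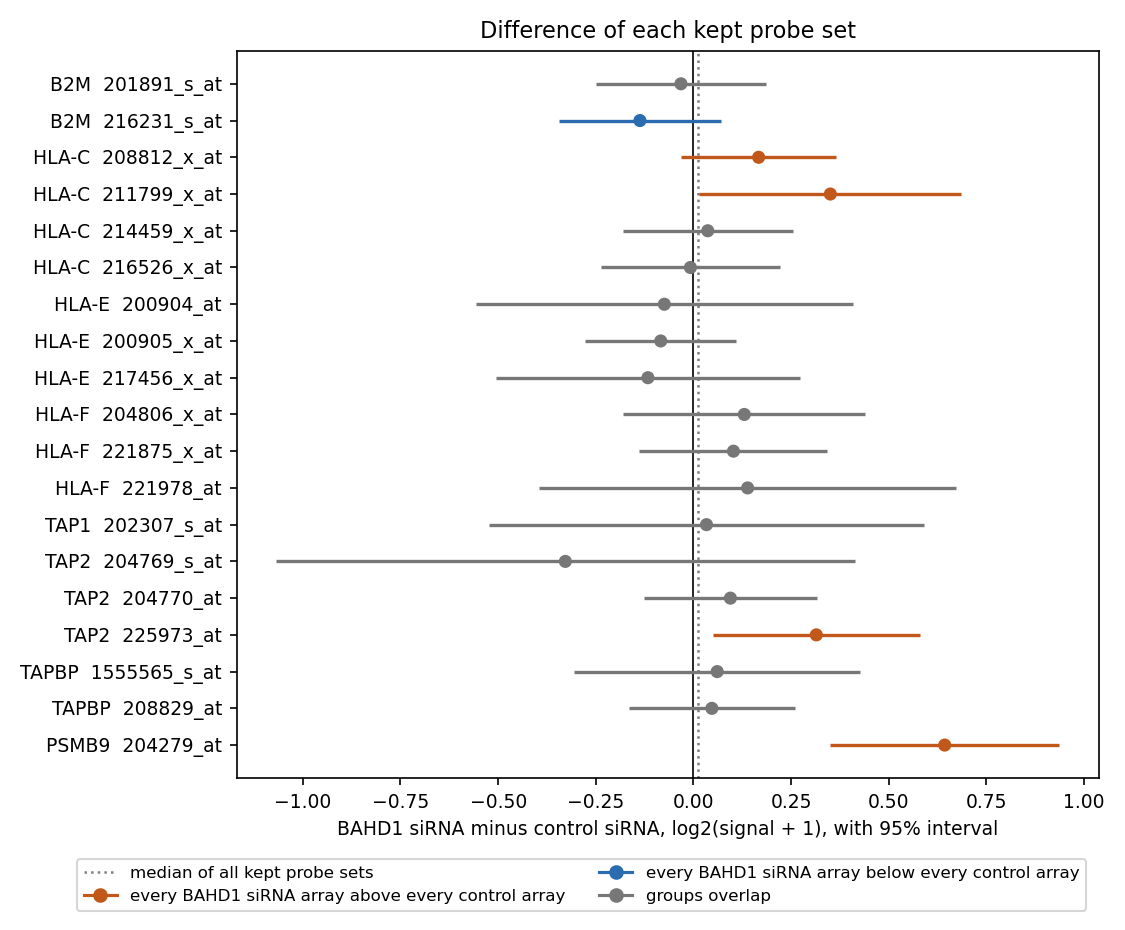
BAHD1 siRNA minus control siRNA on log2(signal + 1) for the 19 tested probe sets, as points with 95% intervals from the single-prior limma fit, coloured by whether the groups overlap; the dotted line is the median of all 27458 tested probe sets. The interval excludes 0 for PSMB9, for 1 of 3 TAP2 and for 1 of 4 HLA-C probe sets, and none of the 19 passed after adjustment.

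HLA-C, a classical heavy chain that presents peptides to T cells and binds receptors of natural killer cells, was read by 4 probe sets, all of a kind (x_at) whose probes may also match other transcripts, so that signal from related heavy chains cannot be told apart. 211799_x_at read 191.2, 207.1 and 203.8 in control arrays and 231.2, 311.2 and 233.3 in BAHD1 siRNA arrays. The groups did not overlap, and BAHD1 siRNA replicate 2 stood above the others of its group. The log2 difference was 0.35 with an SE of 0.14 and a 95% interval of 0.015 to 0.69 (limma: adjusted p = 0.268 with the single prior, 0.106 with the trend). Without BAHD1 siRNA replicate 2 it was 0.21. 208812_x_at read 907.0, 887.9 and 826.2 against 979.1, 998.6 and 963.5, again without overlap, and the difference was 0.17 with an SE of 0.081 (limma, adjusted p = 0.343). The remaining pair showed less: 214459_x_at read 865.9, 834.2 and 748.8 against 845.1, 831.4 and 831.1, a difference of 0.037. 216526_x_at read 1869.0, 1688.5 and 1676.2 against 1864.1, 1681.2 and 1661.4, a difference of -0.0076 with a 95% interval of -0.24 to 0.22. Of the 6 pairs of HLA-C probe sets, correlations over the 6 arrays ran from -0.34 to 0.74.

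HLA-E and HLA-F are nonclassical heavy chains. HLA-E is known as a ligand of an inhibitory receptor on natural killer cells. All their probe sets except 200904_at and 221978_at are of the x_at kind, so signal from related heavy chains cannot be told apart there either. HLA-E was lower in the BAHD1 siRNA group mean in all 3 of its probe sets, with log2 differences of -0.074, -0.084 and -0.12, and the groups overlapped in each. The values of 200905_x_at were 339.1, 357.4 and 358.2 in control arrays and 340.6, 319.4 and 335.2 in BAHD1 siRNA arrays, with a 95% interval of -0.28 to 0.11 (limma, adjusted p = 0.61). In 200904_at the control values were 154.8, 146.7 and 163.3 and the BAHD1 siRNA values 180.8, 162.3 and 108.1, so that 1 array, BAHD1 siRNA replicate 3, carried the sign. Without it the difference was 0.15, and that of 217456_x_at was 0.013, so the sign of both rested on this array. HLA-F had group means above control in all 3 of its probe sets, with differences of 0.13, 0.10 and 0.14, and overlapping groups. One of them, 221978_at, was at -0.10 without control replicate 1 and 0.31 without control replicate 2, and 221875_x_at was at 0.031 without control replicate 3. For 221875_x_at the values were 404.4, 439.6 and 363.2 against 418.4, 436.9 and 437.4, with a 95% interval of -0.14 to 0.34 (limma, adjusted p = 0.615). When the array medians were centred, this HLA-F difference was -0.035 and those of TAP1 and TAPBP were -0.10 and -0.090, and that step moved the median of all genes by -0.14. It also took 225973_at of TAP2 from 0.31 to 0.18 with an SE of 0.16, 211799_x_at and 208812_x_at of HLA-C to 0.21 and 0.029, 200905_x_at of HLA-E to -0.22, and the B2M probe sets 201891_s_at and 216231_s_at to -0.17 and -0.27.

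B2M, the light chain that class I heavy chains generally need to reach the cell surface, was read by 2 tested probe sets. 201891_s_at read 2486.2, 2715.4 and 2836.0 in control arrays and 2723.5, 2577.1 and 2552.9 in BAHD1 siRNA arrays, with the BAHD1 siRNA values inside the control range. Its log2 difference was -0.032 with an SE of 0.089 and a 95% interval of -0.25 to 0.19 (limma, adjusted p = 0.874). 216231_s_at read 2615.5, 2693.9 and 2517.2 against 2495.0, 2389.0 and 2238.0, and here every BAHD1 siRNA array was below every control array. That difference was -0.14 with a 95% interval of -0.34 to 0.070 and did not pass (limma, adjusted p = 0.443; exact permutation p = 0.1). Both B2M probe sets are in the brightest quartile, where 42.1% of probe sets were higher in BAHD1 siRNA cells. The remaining probe set, 232311_at, read at most 13.4 and was not tested.

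NLRC5, the coactivator of class I genes, was read by 1 probe set at 6.8, 15.2 and 14.3 in control arrays and 17.4, 17.1 and 19.9 in BAHD1 siRNA arrays. Every BAHD1 siRNA value lay above every control value, but only 1 of the 6 passed the filter level, so the gene was not tested. Without the filter its log2 difference was 0.62, which did not pass (limma, adjusted p = 0.59). The control value of 6.8 came from replicate 1.

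With 1 probe set per gene, the brightest tested one, 5 of the 8 genes were higher and 3 lower in BAHD1 siRNA cells, with a median log2 difference of 0.040. Over all 12529 genes measured the median was 0.025, and 54.4% were higher. The mean of the 8 genes, each centred on its own mean, was 0.11, 0.033 and 0.046 in BAHD1 siRNA arrays and -0.039, -0.073 and -0.079 in control arrays. PSMB9 and TAP2 followed this mean most closely, at r = 0.81 and 0.73 over the 6 arrays. HLA-E ran against it at -0.62, so the mean is not a pattern shared by the 8. Each gene is itself part of the mean, and genes with larger differences weigh more in it, so these r values are partly fixed in advance. Among probe sets of other genes, those most like the mean over the 6 arrays were SLC25A33 (r = 0.996), NCAPD3 (0.994), CYB5R4 (0.991), ARRDC4 (0.99) and TRABD2B (0.99). These are the top 5 of 23527 compared, on points that share arrays and the group difference.

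**Figure D3:**
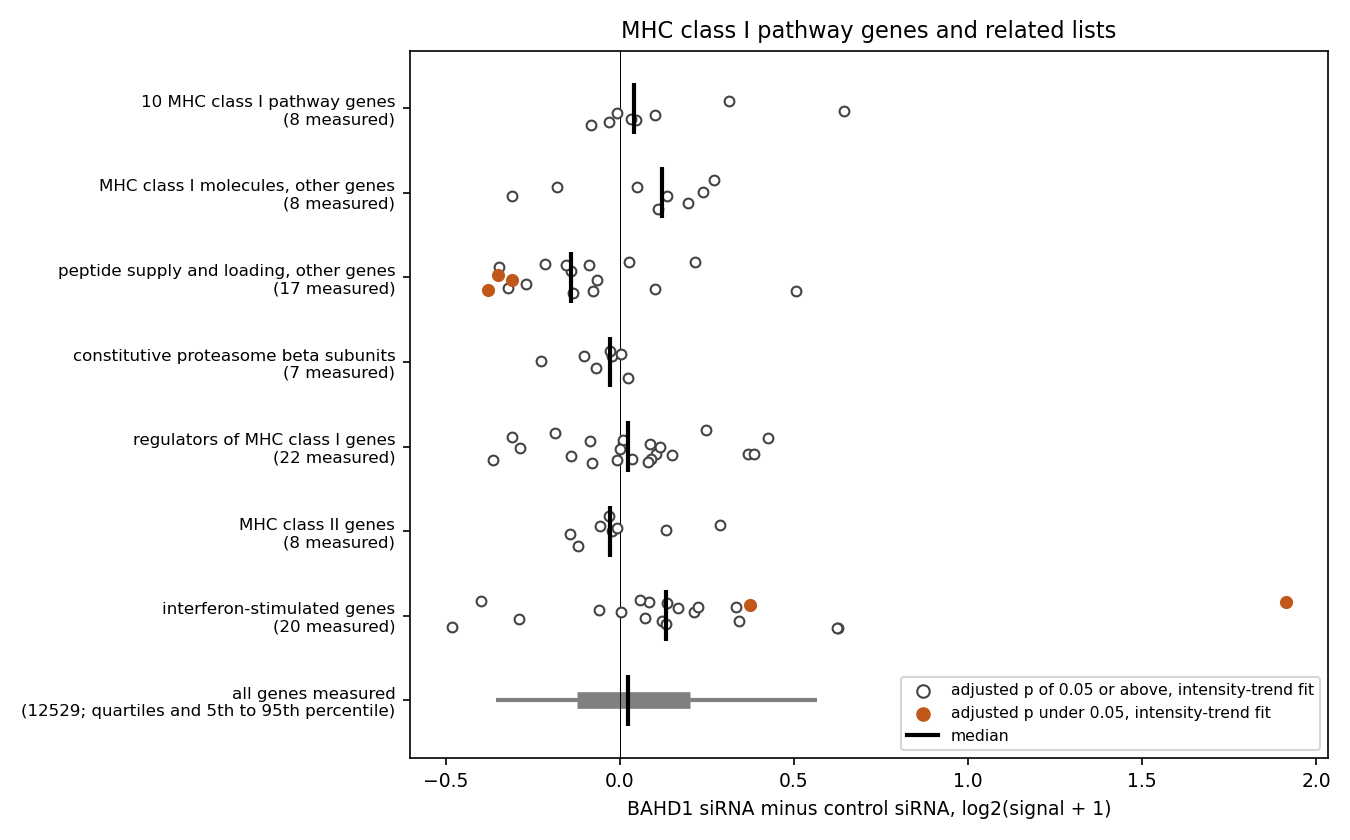
Each circle is 1 measured gene, placed by BAHD1 siRNA minus control siRNA on log2(signal + 1); filled circles had an adjusted p under 0.05 in the intensity-trend fit, black bars are medians, and the grey bar shows all 12529 genes. None of the 8 measured pathway genes is filled. Filled circles to the left are HSP90B1, GANAB and CALR, and to the right IFITM1 and IDO1.

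Other genes around the pathway were read from lists fixed with earlier results known. The single-prior fit called none of them, as it called 0% of all genes, while the intensity-trend fit called 3.06% of genes as higher and 2.46% as lower. Of the other MHC class I and related molecules, 8 of 14 were measured and none passed in either fit; 6 were higher and 2 lower, with a median of 0.12. HLA-B, a classical heavy chain, had a log2 difference of 0.049 and HLA-G, a nonclassical one, 0.20. Both values come from x_at probe sets, whose probes may also match other transcripts. The smallest p-values belonged to MICA, MICB and ULBP2, ligands of an activating receptor on natural killer cells, at -0.31, 0.24 and 0.14.

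Peptide supply and loading takes in peptidases, proteasome activators and chaperones of several compartments. Among 17 measured genes of peptide supply and loading, 3 fell and none rose in the intensity-trend fit, 13 were lower and 4 higher, and the median was -0.14. CALR, the chaperone calreticulin of the loading complex, fell from 767.8, 787.7 and 832.8 to 580.5, 688.8 and 571.7, a log2 difference of -0.38 with an SE of 0.10 (limma: adjusted p = 0.0248 with the trend, 0.184 with the single prior). HSP90B1, a chaperone of the same compartment, and GANAB, a glucosidase that trims glycans of new proteins, fell by 0.31 and 0.35 on the log2 scale (limma with the trend: adjusted p = 0.0178 for HSP90B1, 0.0221 for GANAB; with the single prior 0.167 and 0.183). The second GANAB probe set had a difference of -0.071. All 3 chaperone and trimming genes serve many secreted proteins besides class I molecules. Of the 17 genes 12 were in the brightest quartile of probe sets, which leaned downward as a whole, and the part of that lean was not tested.

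The constitutive proteasome beta subunits, which PSMB8 and PSMB9 can replace or accompany, were all 7 measured and none passed. Their median was -0.027, from -0.23 for PSMB3 to 0.024, and PSMB1 and PSMB4 were at -0.10 and -0.067. Of the regulators of class I genes 22 of 28 were measured and none passed; 14 were higher and 8 lower, with a median of 0.023. STAT3, RFXAP and IRF1 had the smallest p-values, with log2 differences of 0.25, 0.42 and 0.37. The 3 tested STAT3 probe sets ranged from -0.072 to 0.25 and the 2 of RFXAP from 0.10 to 0.42. IRF1, an interferon-induced activator of class I pathway genes, read 32.2, 42.0 and 42.8 in control arrays and 57.5, 45.3 and 48.6 in BAHD1 siRNA arrays, and RFXAP, a subunit of the complex that binds class I and class II promoters, read 169.3, 154.8 and 200.1 against 202.9, 234.4 and 267.9. Both pairs of groups were apart by a small margin, and neither difference passed (limma, adjusted p = 0.283 for IRF1 and 0.231 for RFXAP). CIITA, the class II coactivator, did not pass the filter.

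Class II genes, which present peptides from outside the cell, were measured for 8 of 11 with none called, 2 higher and 6 lower. HLA-DPB1, HLA-DQB1 and HLA-DPA1 had the smallest p-values, at 0.29, -0.14 and -0.12. The 6 tested HLA-DQB1 probe sets ranged from -0.14 to 1.12, so the sign of this gene depends on the probe set. Interferon-stimulated genes, measured for 20 of 34, were higher in 16 and lower in 4, with a median of 0.13, and 2 rose in the intensity-trend fit. IDO1, a tryptophan-degrading enzyme, read 5.8, 11.7 and 5.9 against 34.4, 29.7 and 28.3 and passed the filter through its BAHD1 siRNA arrays alone, so it could be tested only because it was high there, and its call is no support for the list. IFITM1, an antiviral membrane protein, read 279.2, 301.3 and 339.5 against 379.7, 376.3 and 435.1. The log2 difference of IFITM1 was 0.37 (limma: adjusted p = 0.0439 with the trend, 0.198 with the single prior). ISG20 and PML had differences of 0.63 and 0.62 and did not pass, and the 6 PML probe sets ranged from -1.40 to 0.76. Of the 4 lower genes, IRF7, ISG15 and IFITM2 were at -0.48, -0.40 and -0.29. None of these passed in either fit, and the groups of IFITM2 did not overlap. Of the 20 genes 8 were in the dimmest quartile of probe sets, which leaned upward as a whole, and the part of that lean was not tested. The 14 with a probe set that were too dim to be measured included MX1, OAS1, IFI44 and GBP1.

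**Figure D4:**
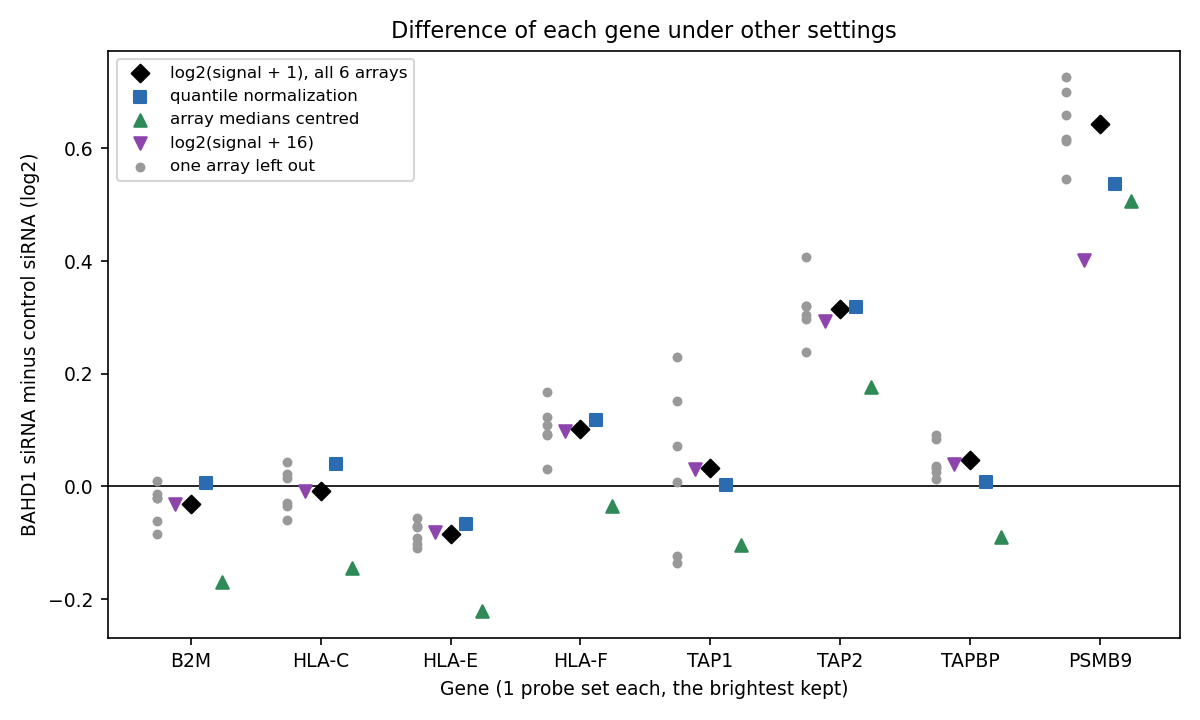
Log2 difference of the 8 measured genes, by the brightest tested probe set of each, under the settings used (black diamonds), other normalizations and pseudocount (coloured) and with 1 array left out (grey). PSMB9 and TAP2 stay above 0 under each setting drawn and HLA-E below 0. B2M, HLA-C, HLA-F, TAP1 and TAPBP cross 0 under at least 1 of them.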

How the data were processed

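Biotin-labelled RNA of 6 HEK293 samples, 3 per siRNA, was hybridised to 1 array each. The deposited table holds a linear intensity per probe set. Each array's mean without its highest and lowest 2% was 100, and GCOS and GCRMA are listed, with no role, per the submitters' processing notes. No build is given in the sources used here. The table was read as GCOS-type signal, although a log2 scale had been assumed, and log2(signal + 1) was used. The 62 control probe sets were left out of tests. Samples were grouped by title. R 4.3.3 and limma 3.58.1 (lmFit, eBayes, Benjamini-Hochberg, 6 arrays, no covariates) were tested on simulated data. The intensity-trend fit set both the trend and the robust option of eBayes. With 3 arrays per group their number limits the precision. The limma p-values set each difference against the spread between these cultures, with variances drawn towards a prior from all tested probe sets.

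The genes and lists were chosen with earlier results of these data known. Named genes are the 10 chosen, BAHD1 and the 5 most like the mean. From the other lists they are genes that passed in either fit or had the 3 smallest p-values of their list. HLA-B, HLA-G, CIITA, IFITM2, IRF7, ISG15 and dim genes were added after their values were seen. No symbol needed an update through RefSeq (0), and no probe set of several genes held a chosen one. Promoters were matched by symbol for 8 of 10 genes, HLA-E and NLRC5 being without an entry; where a gene had several, the start farthest upstream was used.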

Additional observations from a re-analysis of the deposited data

How the results depend on the processing

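The single-prior fit called 0 of the 19 tested probe sets of the pathway with the replicate block, quantile normalization, centred array medians, log2(signal + 16) and each array left out, 0 of 24 with no filter and 0 of 13 with a filter at the 75th percentile. Over all 27458 probe sets it called 0 and the intensity-trend fit 1221. The single prior called 1147 of all 13876 probe sets with the stricter filter and 0 of 54613 with no filter. With 1 array left out it called 0 to 4 of the 27458. The intensity-trend fit with 1 array left out called 177, 186, 279, 295, 1132 or 1174 of them, the highest without control replicate 3. In that last setting, chosen after seeing the data, 0 to 1 pathway probe sets were called, the 1 being TAP2 without control replicate 3.

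The median difference of the pathway genes, 0.040, was 0.075 with no filter (10 genes), -0.097 with centred medians and 0.012 to 0.10 with 1 array left out. Relative to all genes it was 0.016, which centring cannot change, and with 1 array left out it ran from -0.017 (without BAHD1 siRNA replicate 1) to 0.076 (without control replicate 1). Without probe sets ending in x_at, also chosen after seeing the data, it was 0.047. Sign changes of single genes came with quantile normalization (B2M 0.0068, HLA-C 0.040), with centred medians (HLA-F -0.035, TAP1 -0.10, TAPBP -0.090) and with 1 array left out (B2M -0.085 to 0.010, HLA-C -0.060 to 0.043, TAP1 -0.14 to 0.23). The intensity-trend fit, the block and the filters leave these differences as they are, and centring moves them all alike, so neither bears on their signs relative to other genes. BAHD1 stayed below 0, from -0.51 to -0.30 with 1 array left out.

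The residuals of same-numbered arrays correlated at 0.010, 0.010 and 0.024. The titles give only a replicate number, and so few values cannot show whether same-numbered samples were handled together. With the replicate block the smallest adjusted p of the pathway was 0.254 (limma), 0 of the 19 were called, and 0 of all probe sets; 2 of the 3 control arrays correlated best with their own number. Dim signal limits PSMB8, NLRC5 and PSMB9 most.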
